A study of Mus musculus with 2 samples.

Results

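The heat-shock chaperones described here are 9 genes, Hspa1a, Hspa1b, Hsph1, Dnajb1, Hsp90aa1, Hsp90ab1, Hspa8, Hspe1 and Hspd1, of the 55357 genes listed in the count tables. They were taken by gene symbol, each matched 1 listed gene used here, and each was read in every gated cell class of both libraries. All 9 had UMIs (unique molecular identifiers, each standing for 1 captured transcript end) in both libraries. For description they were split by textbook role into 4 stress-inducible members (Hspa1a, Hspa1b, Hsph1 and Dnajb1) and 5 members that cells express at all times (Hsp90aa1, Hsp90ab1, Hspa8, Hspe1 and Hspd1), called constitutive here although heat shock raises several of them further.

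The series holds 1 droplet library of live CD45+ cells from tumours that the mouse colon carcinoma line MC38 formed in SPP1fl/fl-Lyz2-icre mice, called Lyz2-icre below, and 1 from tumours of SPP1fl/fl mice, called control. Both genotypes carry the floxed Spp1 alleles, and the Lyz2-icre mice add a Cre recombinase expressed from Lyz2, a gene of macrophages, monocytes and neutrophils, so that deletion is directed to such cells. The number of mice behind each library, their age and the deleted exons are not given in the sources used here. Spp1 had 180 UMIs (2.49 counts per 1000000 UMIs of the class, CPM) in macrophage-like cells of the Lyz2-icre library and 36167 UMIs (631 CPM) in those of the control library, although a 3-prime tag may lie outside the deleted part. With 1 library per genotype there is no replicate and no test of genotype. Intervals are 95% intervals that cover counting error only, and genotype, library, tumour and handling cannot be told apart. After filtering, 13915 Lyz2-icre and 8724 control cells remained, with a median of 6374 and 9379.5 UMIs and of 0.796% and 1.64% mitochondrial UMIs. The libraries shared 43 barcode sequences.

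Cells were assigned to classes by marker genes that include none of the chaperones. The 10 classes with at least 50 cells in each library were macrophage-like (9829 Lyz2-icre and 5385 control cells), C1q-low phagocyte-like (484 and 476), monocyte-like (341 and 169), cDC2-like (78 and 103), migratory dendritic-like (92 and 135), CD8 T-like (292 and 241), regulatory T-like (71 and 94), other T-like (135 and 122), NK-like (215 and 213) and collagen-high (288 and 177). C1qa, which marks macrophages, stood at 5164 and 4925 CPM in macrophage-like cells against 144 and 149 CPM in NK-like cells, in Lyz2-icre and control. Ptprc, which encodes CD45, the antigen of the sort, was at 19.9 and 17.3 CPM in collagen-high cells against 436 and 461 CPM in macrophage-like cells, so the collagen-high class goes against the label of the sorted cells and is given by its gate only.

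Heat-shock proteins bind unfolded proteins and help them to fold or to be degraded. The HSP70 proteins Hspa1a, Hspa1b and Hspa8 cycle on and off their clients, with the J-domain protein Dnajb1 delivering clients and the HSP110 protein Hsph1 exchanging nucleotide. The HSP90 proteins Hsp90aa1 and Hsp90ab1 mature kinases and receptors, and Hspd1 and Hspe1 form the chaperonin and lid of the mitochondrion. Under heat, oxidants or protein damage the transcription factor HSF1 binds heat shock elements, inverted repeats of a short GAA unit, and induces Hspa1a, Hspa1b, Dnajb1 and Hsph1 strongly. The same genes, with immediate early genes, are also known to be induced when tissue is digested and cells are sorted.

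The starts of the genes carry such elements to differing degrees, and the windows below are shown because the members differ there. RefSeq windows on GRCm38.p6 (the mm10 assembly), 250 bases before to 50 bases after each gene's start, were at hand for 6 of the 9 members, with 9 windows in all. No window was used for Hsp90aa1, Hsp90ab1 and Hspa8. Capitals mark matches to GAANNTTC or TTCNNGAA, a pair of inverted units searched on both strands, with overlapping matches run together.
Hspa1a, chr17:34972107-34972406, minus strand: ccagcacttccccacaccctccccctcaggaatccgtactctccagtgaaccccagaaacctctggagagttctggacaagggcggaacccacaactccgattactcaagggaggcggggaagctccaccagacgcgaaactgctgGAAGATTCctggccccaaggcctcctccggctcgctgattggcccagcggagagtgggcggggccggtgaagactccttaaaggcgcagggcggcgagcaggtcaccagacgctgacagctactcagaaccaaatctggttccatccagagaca
Hspa1b, chr17:34959189-34959488, minus strand: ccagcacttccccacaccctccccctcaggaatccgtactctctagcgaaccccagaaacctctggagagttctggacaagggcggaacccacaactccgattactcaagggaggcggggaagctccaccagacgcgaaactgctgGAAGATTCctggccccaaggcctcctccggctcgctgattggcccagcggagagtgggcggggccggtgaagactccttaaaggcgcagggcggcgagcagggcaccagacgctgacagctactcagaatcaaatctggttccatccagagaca
Hsph1, chr5:149636287-149636586, minus strand: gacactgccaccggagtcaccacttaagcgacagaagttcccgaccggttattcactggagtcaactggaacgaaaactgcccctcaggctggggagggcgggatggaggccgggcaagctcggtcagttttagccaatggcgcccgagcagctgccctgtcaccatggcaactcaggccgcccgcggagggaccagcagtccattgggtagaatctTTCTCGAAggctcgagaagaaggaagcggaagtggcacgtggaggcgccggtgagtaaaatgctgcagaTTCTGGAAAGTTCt
Hspe1, chr1:55087898-55088197, plus strand: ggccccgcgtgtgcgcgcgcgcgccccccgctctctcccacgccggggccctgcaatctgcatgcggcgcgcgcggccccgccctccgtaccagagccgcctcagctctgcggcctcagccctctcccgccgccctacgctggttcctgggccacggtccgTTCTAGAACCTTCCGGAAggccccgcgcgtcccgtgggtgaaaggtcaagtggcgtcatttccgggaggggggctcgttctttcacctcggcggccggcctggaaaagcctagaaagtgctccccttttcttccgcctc

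Hspa1a and Hspa1b are neighbours on chromosome 17 (mm10, 34969190 to 34972156 and 34956436 to 34959238, both on the minus strand) with 9951 bases between them. Their windows differ at 4 positions, counted from 1 at the 5′ end with the Hspa1a base first (C44T, T47C, T249G and C276T), and both hold GAAGATTC starting 104 bases before the gene's start. The last 500 bases of their transcripts share 0 of 401 exact stretches of 100 bases. Over the whole transcript 47.1% of such stretches of Hspa1a and 49.9% of those of Hspa1b are shared. How 3-prime tags were assigned between the 2 genes was not tested. Hsph1 had a match 33 bases before its start and an overlapping pair 37 and 42 bases after it, and in its other window, set on another start, the same matches lie 54 bases before and 16 and 21 bases after. Hspe1 had matches 89, 84 and 79 bases before its start. Hspe1 and Hspd1 lie head to head and overlap at their 5′ ends on chromosome 1, and the same matches fall 144, 139 and 134 bases before the start of 1 of the 2 Hspd1 windows, while the other Hspd1 window and the 2 windows of Dnajb1 held none. Over all 32851 windows of this length, 15.1% held such a pair and 0.603% held 3 units in a row (GAANNTTC extended by NNGAA, or TTCNNGAA extended by NNTTC). A pair was present for 5 of the 6 members, and 3 units in a row for 3 of them, Hsph1, Hspe1 and Hspd1. These counts take a member with a match in any of its windows, while the shares above are of windows. They are also not separate cases, since Hspe1 and Hspd1 share the same stretch and the Hspa1a and Hspa1b windows are nearly alike. These matches describe letters and not bound sites.

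In macrophage-like cells, the most numerous class, every inducible member was somewhat higher in the Lyz2-icre library. Hspa1a, an inducible cytosolic HSP70, had 123 CPM (8908 UMIs) in Lyz2-icre and 116 CPM (6649 UMIs) in control, a ratio of 1.06 (1.03 to 1.10). Hspa1b, its near-identical partner, had 47.7 CPM (46.1 to 49.3) in Lyz2-icre and 35.1 CPM (33.6 to 36.7) in control. With a ratio of 1.36 (1.28 to 1.44) it stood furthest apart of the members, and its ratio exceeded that of 98.7% of the genes measured. Hsph1, the HSP110 exchange factor, had 58.4 CPM in Lyz2-icre and 47.4 CPM in control, a ratio of 1.23 (1.17 to 1.29). With 5 CPM added its ratio exceeded that of 96.6% of these genes. Dnajb1, the main inducible J-domain partner of HSP70, had 59.0 CPM in Lyz2-icre and 54.0 CPM in control, a ratio of 1.09 (1.04 to 1.15). Summed, the inducible members made up 288 CPM (284 to 292) in Lyz2-icre and 253 CPM (248 to 257) in control, a log2 ratio of 0.19 with 5 CPM added to each level.

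This difference did not hold across strata of the macrophage-like cells. In female cells (Xist without Y-linked UMIs, 5645 and 3255 cells) the inducible sum was 285 CPM in Lyz2-icre and 284 CPM in control, a log2 ratio of 0.00. In male cells (Y-linked UMIs without Xist, 1823 and 1296 cells) it was 251 CPM in Lyz2-icre and 176 CPM in control, a log2 ratio of 0.50. Both libraries thus pool cells of both sexes. Hspa1b had log2 ratios of 0.16 in female and 0.86 in male cells, and Hsph1 of -0.08 and 0.90. Whether the sexes differ was not tested, since each sex is a single pool in each library.

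**Figure D1:**
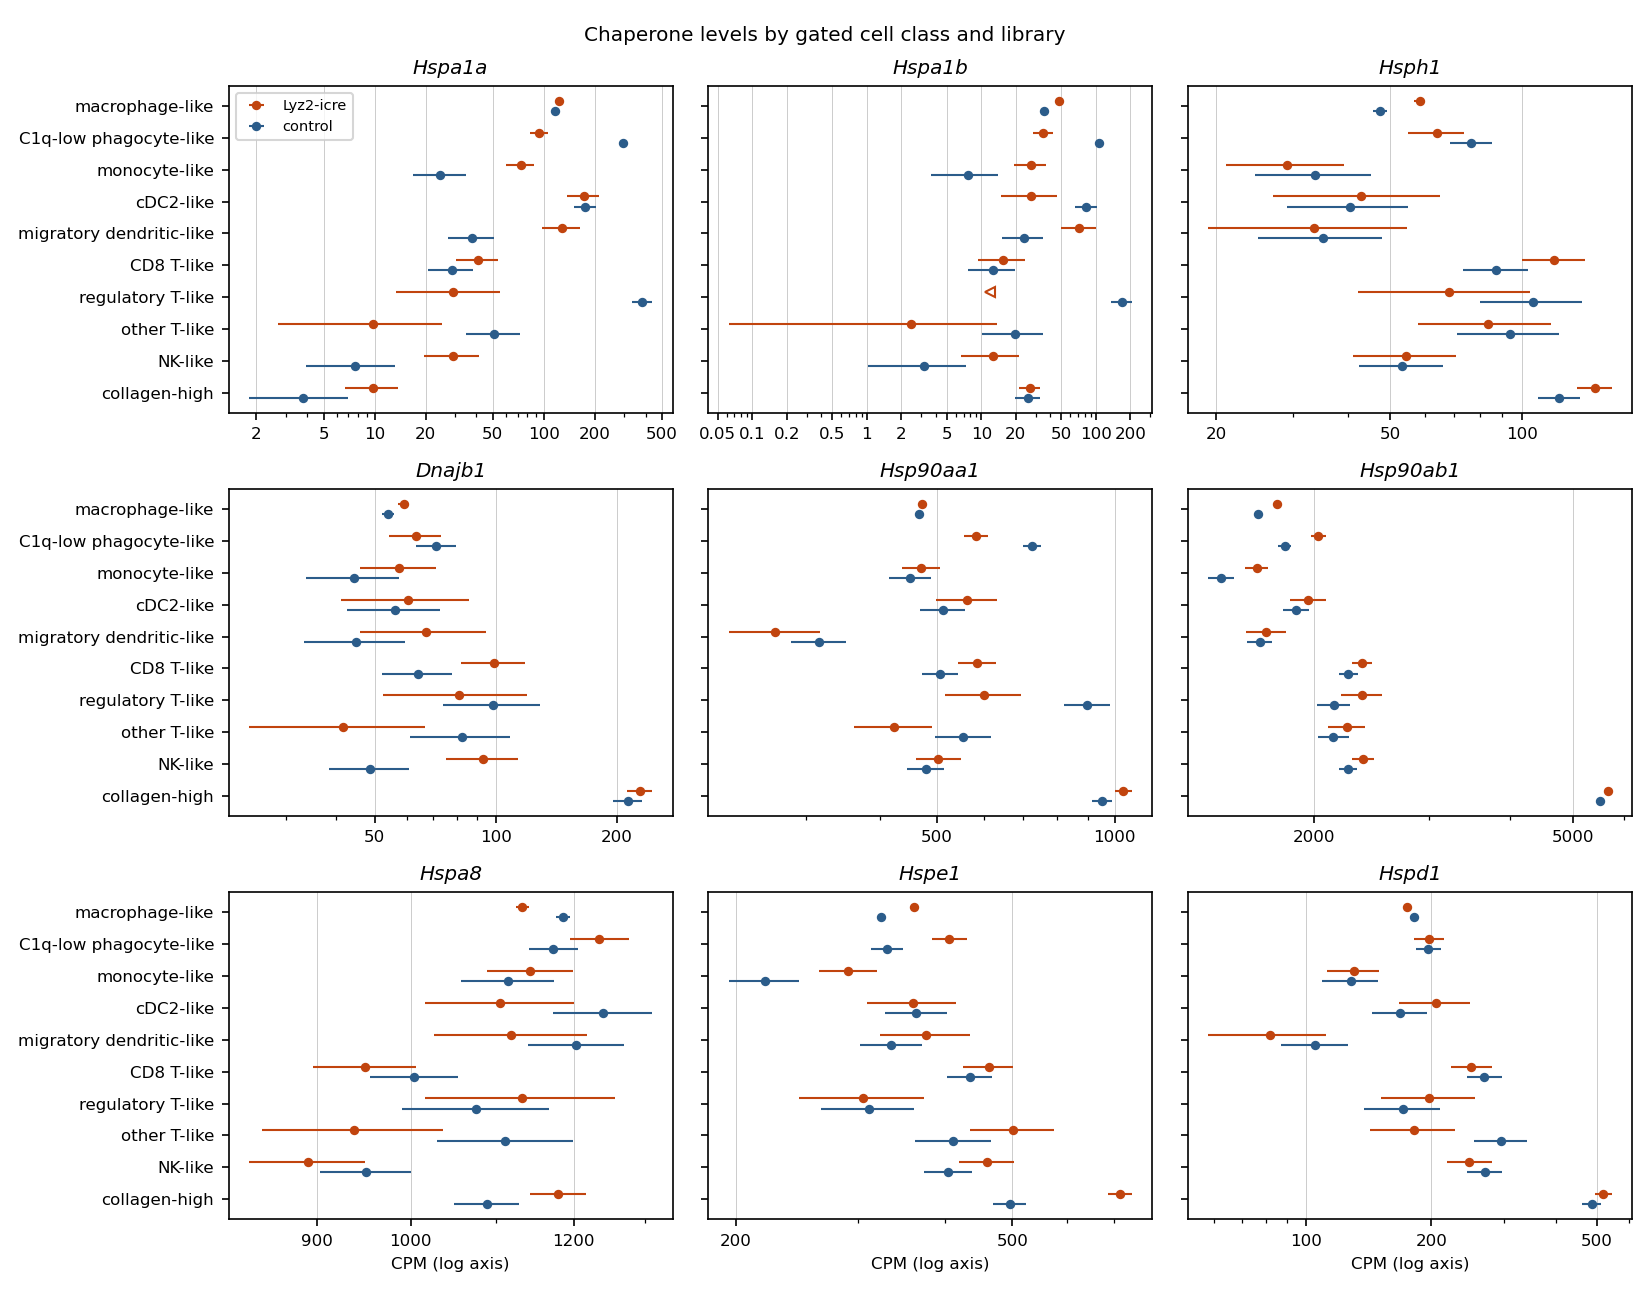
Level of each of the 9 chaperones (CPM, log axis with its own range in each panel) in the 10 gated classes, Lyz2-icre in orange above control in blue, with 95% Poisson intervals as bars. The open triangle marks the upper limit for Hspa1b in Lyz2-icre regulatory T-like cells, which had 0 UMIs. Hspa8 spans less than any other member across classes, while Hspa1a and Hspa1b span the most.

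Among the constitutive members, the cytosolic chaperones were the more abundant. Hsp90ab1, the constitutive HSP90, had 1755 CPM in Lyz2-icre and 1640 CPM in control and ranked 85 and 90 among all genes of these cells by level. Hspa8, the constitutive HSP70, had 1133 CPM in Lyz2-icre and 1186 CPM in control, with ranks of 131 and 121. Hsp90aa1, the HSP90 that stress can raise, had 472 CPM in Lyz2-icre and 467 CPM in control, and its ratio of 1.01 (0.995 to 1.03) was not set apart from 1 by counting error. The mitochondrial pair diverged slightly. Hspe1, the lid, had 361 CPM in Lyz2-icre and 323 CPM in control (log2 ratio 0.16), while Hspd1, the chaperonin ring, had 175 CPM in Lyz2-icre and 181 CPM in control (-0.05). The 5 summed to 3896 CPM in Lyz2-icre and 3797 CPM in control, a ratio of 1.03 and a log2 ratio of 0.04.

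Of the 9 members, 0 differed by more than 1.5-fold in macrophage-like cells, a size taken throughout with the 5 CPM added, where 28 of 7911 genes (0.354%) were higher and 70 (0.885%) lower past that size in Lyz2-icre. By sign, 7 members were higher and 2, Hspa8 and Hspd1, were lower in Lyz2-icre, with a median log2 ratio of 0.10 against -0.02 over all genes. The median of other genes of the stress response lay nearer to that of all genes. Of a list of 30 further HSF1 targets and co-chaperones, 26 passed the filter on low levels, 0 differed past 1.5-fold and the median log2 ratio was -0.04. Chordc1, an HSP90 co-chaperone, and Ptges3, which encodes the HSP90 co-chaperone p23, had log2 ratios of 0.10 and 0.11, the 2 highest among genes of at least 20 CPM. Bag1, an HSP70 nucleotide exchange factor and 1 of the 2 lowest, had -0.24. Hspb1, a small heat-shock protein below that level, had 17.2 CPM in Lyz2-icre and 10.4 CPM in control, a log2 ratio of 0.53 with 5 CPM added and a plain ratio of 1.66.

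Other folding systems held no gene that differed past 1.5-fold. Of 14 cytosolic chaperonin and prefoldin genes, 0 passed that size and the median log2 ratio was -0.09, with Pfdn1 at 0.20 and Pfdn4 at 0.08 the highest and Cct6a at -0.18 and Pfdn6 at -0.15 the lowest. Among 20 chaperone and stress-response genes of the endoplasmic reticulum 0 passed it and the median was 0.07. Pdia4, a disulfide isomerase, had 162 CPM in Lyz2-icre and 120 CPM in control, and Creld2 had 50.5 CPM in Lyz2-icre and 37.3 CPM in control. Hspa5, which encodes BiP, had 772 CPM in Lyz2-icre and 945 CPM in control, and Herpud1, an ER stress target, had 114 CPM in Lyz2-icre and 145 CPM in control. Of 10 mitochondrial chaperone, import and protease genes 0 passed it, with a median of -0.05. The named genes ran from -0.18 for Clpx and -0.10 for Timm44 to -0.01 for Clpp and 0.09 for Tomm70a. Immediate early genes, which handling also induces, leaned the other way. Of 20 such genes 2 were lower past 1.5-fold (Btg2 at 487 CPM in Lyz2-icre and 746 CPM in control, Ier5 at 171 and 268 CPM), the median log2 ratio was -0.29, and Fos (0.11) and Klf4 (0.12) were the highest. Their summed level was 16266 CPM in Lyz2-icre and 18067 CPM in control, and their part in the chaperone values was not tested.

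Across the other classes the inducible members differed in both directions between the libraries. Summed inducible CPM was lower in Lyz2-icre in 4 of 10 classes and higher in 6. In regulatory T-like cells it was 178 CPM in Lyz2-icre and 756 CPM in control, in C1q-low phagocyte-like cells 255 CPM in Lyz2-icre and 550 CPM in control, in other T-like cells 138 CPM in Lyz2-icre and 247 CPM in control, and in cDC2-like cells 303 CPM in Lyz2-icre and 354 CPM in control. It was higher in migratory dendritic-like cells, at 299.8 CPM in Lyz2-icre and 141 CPM in control, in monocyte-like cells, at 186 CPM in Lyz2-icre and 110 CPM in control, in NK-like cells, at 189 CPM in Lyz2-icre and 113 CPM in control, and in CD8 T-like cells, at 274 CPM in Lyz2-icre and 192 CPM in control. Collagen-high cells held 412 CPM in Lyz2-icre and 364 CPM in control. The CD8 T-like log2 ratio of 0.50 was 0.09 in cells thinned to 2000 UMIs, 0.03 in male cells and -0.03 in cells of 5000 to under 10000 UMIs. In that depth range the collagen-high value was -0.34.

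The inducible HSP70 pair varied most between classes. Hspa1a had 93.4 CPM in Lyz2-icre and 296 CPM in control in C1q-low phagocyte-like cells, a ratio of 0.316 (0.276 to 0.361), and Hspa1b had 34.7 CPM in Lyz2-icre and 107 CPM in control there, a ratio of 0.324 (0.259 to 0.403). In monocyte-like cells the pair pointed the other way, with Hspa1a at 72.9 CPM in Lyz2-icre and 24.5 CPM in control and Hspa1b at 27.0 CPM in Lyz2-icre and 7.66 CPM in control. NK-like cells held 29.1 CPM of Hspa1a in Lyz2-icre and 7.61 CPM in control, from 30 and 12 UMIs. Other T-like cells held 9.82 CPM in Lyz2-icre and 51.0 CPM in control. In cDC2-like cells Hspa1a was level, at 172 CPM in Lyz2-icre and 175.5 CPM in control, while Hspa1b had 27.3 CPM in Lyz2-icre and 81.8 CPM in control. Hspa1b was below Hspa1a in every leukocyte class of the 10 with UMIs of both, at 0.387 of it in Lyz2-icre and 0.303 of it in control macrophage-like cells, but stood at 2.72 and 6.80 times Hspa1a in collagen-high cells of Lyz2-icre and control.

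In the small classes a few cells carried these sums. In regulatory T-like cells Hspa1a had 9 UMIs in Lyz2-icre and 206 in control, of which 122 came from 1 of the 4 control cells with any. Hspa1b had 0 UMIs in 71 Lyz2-icre cells and 91 UMIs in 94 control cells, 56 of them in 1 cell. The count of 0 allows a share of cells with a UMI of up to 4.23% (3 counts of 71). The share in control cells was 5.32%, so the shares of cells were not clearly apart. In Lyz2-icre migratory dendritic-like cells 56 of 61 Hspa1a UMIs came from 1 cell, and in control cDC2-like cells 70 of 178 did. Leaving out the cell with the highest inducible share in each class and library turned the migratory dendritic-like log2 ratio to -0.31 against 1.06 with it. The ratio became 0.00 against -0.22 in cDC2-like cells and -1.34 against -2.05 in regulatory T-like cells. Without the top 1% of cells, the Hspa1b log2 ratio in monocyte-like cells was -0.02, against 1.34 with all cells, and that of Hspa1a in NK-like cells was 0.32, against 1.44. The inducible log2 ratio of male monocyte-like cells was -0.15, against 0.86 in female cells. The lower value of C1q-low phagocyte-like cells remained, at -1.26 against -1.09 with all cells and -1.11 without the top 1% of cells. Immediate early genes summed to 15349 CPM in Lyz2-icre and 14370 CPM in control in that class, and their part was not tested. In the same class, 65 of 484 Lyz2-icre cells held the 269 Hspa1a UMIs, with 76 in the highest cell, against 115 of 476 control cells with 1289 UMIs and 158 in the highest. By sex this class had inducible sums of 172.5 CPM in Lyz2-icre and 601 CPM in control in female cells (244 and 329 cells), against 326 CPM in Lyz2-icre and 333 CPM in control in male cells (122 and 89 cells).

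**Figure D2:**
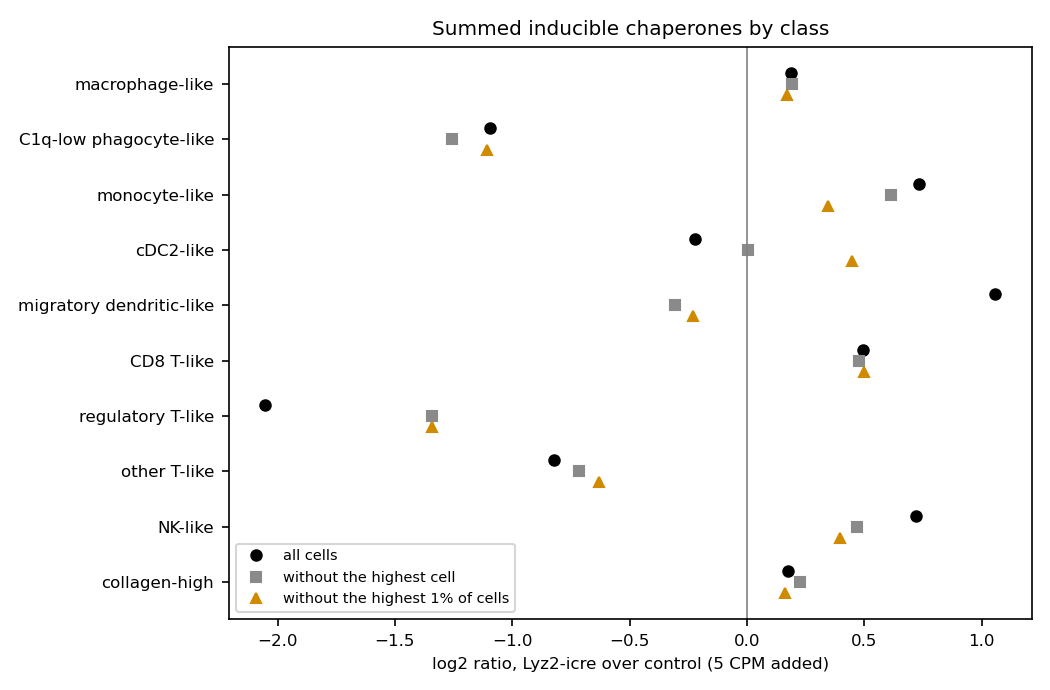
Log2 ratio of summed inducible chaperone CPM, Lyz2-icre over control with 5 CPM added, in each of the 10 gated classes, for all cells, without the cell of the highest inducible share and without the 1% of cells of the highest share. The macrophage-like value stays at 0.17 to 0.19, while migratory dendritic-like cells move to -0.31, against 1.06 with all cells.

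Hsph1 and Dnajb1 varied less between classes. Hsph1 was highest in collagen-high cells, at 147 CPM in Lyz2-icre and 122 CPM in control. CD8 T-like cells followed in Lyz2-icre, at 118 CPM in Lyz2-icre and 87.4 CPM in control, and regulatory T-like cells followed in control. In neither library did the interval of collagen-high cells lie clear of that of the next class. Hsph1 was lowest in monocyte-like cells, at 29.0 CPM in Lyz2-icre and 33.7 CPM in control. This was within counting error of migratory dendritic-like cells, at 33.5 CPM in Lyz2-icre and 35.1 CPM in control. Dnajb1 was likewise highest in collagen-high cells, at 228 CPM in Lyz2-icre and 213 CPM in control. Its ratio differed in sign between lymphocyte classes, with 98.8 CPM in Lyz2-icre and 63.9 CPM in control in CD8 T-like cells, 93.1 CPM in Lyz2-icre and 48.8 CPM in control in NK-like cells, and 41.8 CPM in Lyz2-icre and 82.2 CPM in control in other T-like cells.

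The constitutive members differed little between the libraries in their summed level. The log2 ratio of their sum ran from -0.07 to 0.13 over the 10 classes, with regulatory T-like cells at 4601 CPM in Lyz2-icre and 4597 CPM in control. NK-like cells were at 4480 CPM in Lyz2-icre and 4356 CPM in control and monocyte-like cells at 3664 CPM in Lyz2-icre and 3350 CPM in control. Collagen-high cells stood apart from the leukocyte classes, at 9111 CPM in Lyz2-icre and 8540 CPM in control. Hsp90ab1 carried most of that excess, with 5663 CPM in Lyz2-icre and 5516 CPM in control, against 1630 to 2379 CPM in Lyz2-icre and 1437 to 2256 CPM in control over the other 9 classes. The 2 HSP90 genes held 70.3% and 72.6% of all member UMIs in collagen-high cells of Lyz2-icre and control, against 53.2% and 52.0% in macrophage-like cells.

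Hsp90ab1 was higher in Lyz2-icre in 10 of 10 classes, by log2 ratios of 0.03 to 0.18, a sign it kept under 3 other scalings (median-of-ratios, mean of per-cell CPM and thinned cells), with a lowest value of 0.00 under the first. It did not keep it in female macrophage-like cells, where it was at 1684 CPM in Lyz2-icre and 1692 CPM in control. Hspe1 was higher in 8 of 10 classes, with its widest gap in collagen-high cells at 714.5 CPM in Lyz2-icre and 496 CPM in control. Hspd1 was higher in 5 of 10, with log2 ratios from -0.68 in other T-like cells (182 CPM in Lyz2-icre and 294 CPM in control) to 0.27 in cDC2-like cells (205 CPM in Lyz2-icre and 169 CPM in control). Hsp90aa1 was lower in Lyz2-icre in 4 of 10 classes, with 583 CPM in Lyz2-icre and 724 CPM in control in C1q-low phagocyte-like cells and 600.2 CPM in Lyz2-icre and 899 CPM in control in regulatory T-like cells. Hspa8 was the flattest member, from 891 to 1235 CPM in Lyz2-icre and from 951 to 1240 CPM in control, with the highest class 1.39 and 1.30 times the lowest.

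Counts past 1.5-fold were read against all genes of each class. In C1q-low phagocyte-like cells 2 members were lower and 0 higher, against 3.29% of genes lower and 1.86% higher. Monocyte-like cells had 0 lower and 2 higher (3.54% and 4.55% of genes), cDC2-like cells 1 lower and 0 higher (9.87% and 3.42%), and migratory dendritic-like cells 0 lower and 2 higher (10.9% and 2.04%). CD8 T-like cells had 0 lower and 1 higher (6.03% and 2.37%), regulatory T-like cells 3 lower and 0 higher (11.6% and 3.48%), and other T-like cells 3 lower and 0 higher (10.2% and 3.24%). NK-like cells had 0 lower and 2 higher (6.52% and 1.47%), and collagen-high cells 0 in either direction (3.41% and 2.09%). Between 8 and 9 members passed the filter on low levels in each class. The filter uses the higher library only, so a member can pass through the library where it is high. Some counts also rest on few cells. Without the cell of the highest inducible share, Hspa1a and Hspa1b had log2 ratios of -1.19 and -0.72 in migratory dendritic-like cells. In C1q-low phagocyte-like cells they stayed at -1.87 and -1.77. The counts are therefore a description only.

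Within a class the inducible members were spread very unevenly over cells. After each macrophage-like cell was thinned to 2000 UMIs, which left out the shallower cells and kept 8854 Lyz2-icre and 5084 control cells, 73.7% of Lyz2-icre cells and 75.1% of control cells had 0 inducible UMIs. At least 5 were found in 264 Lyz2-icre cells (2.98%, 2.64 to 3.36) and in 102 control cells (2.01%, 1.64 to 2.43), with up to 87 in a Lyz2-icre cell and up to 65 in a control cell. Those cells held 53.7% of all inducible UMIs in Lyz2-icre and 41.0% in control. The variance of the count per cell was 11.6 times its mean in Lyz2-icre and 7.83 times in control, against 2.32 and 2.43 times for the constitutive sum, whose median was 7 UMIs per cell in both libraries. The top 10% of cells held 76.3% and 72.2% of inducible but 21.2% and 21.2% of constitutive UMIs in Lyz2-icre and control. The cut at 5 falls in a continuous range, with 57 Lyz2-icre and 49 control cells at 4 UMIs and 45 and 16 at 5. In C1q-low phagocyte-like cells 7 of 469 Lyz2-icre cells (1.49%) and 27 of 469 control cells (5.76%) reached it.

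**Figure D3:**
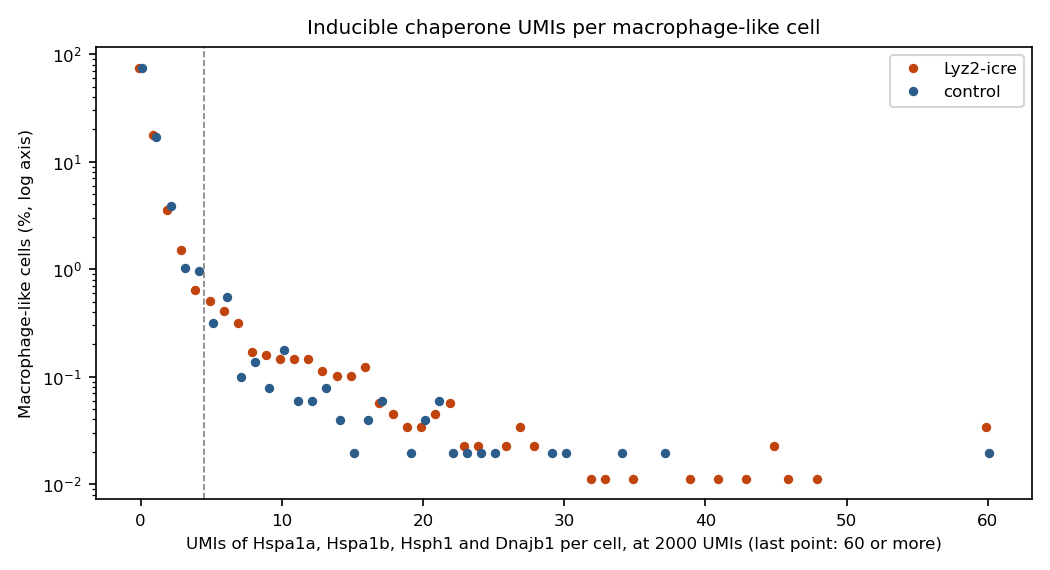
Percent of macrophage-like cells (log axis) by their number of summed inducible chaperone UMIs after thinning to 2000 UMIs per cell, Lyz2-icre in orange and control in blue, with cells of 60 or more at the last point. The dashed line lies between 4 and 5 UMIs, and 2.98% of Lyz2-icre cells and 2.01% of control cells lie to its right.

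Shares of cells with a UMI depended on depth. For Hspa1a they were 9.68% in Lyz2-icre and 10.4% in control macrophage-like cells after thinning, against 18.5% and 24.4% before it, and for Hspa1b 5.23% and 3.87% after thinning, against 8.94% and 9.90%. The lowest thinned share of Hspa1a in any of the 10 classes was that of NK-like cells, 1.01% in Lyz2-icre and 1.45% in control, with median depths before thinning of 4316 and 6677 UMIs. Free RNA could not be removed and can give such shares in cells that do not express the gene. Hsph1 and Dnajb1 were seen in 9.39% and 10.9% of thinned Lyz2-icre cells and in 7.45% and 9.56% of control cells, while Hsp90ab1 was seen in 94.8% of Lyz2-icre and 93.6% of control cells and Hspa8 in 85.4% and 87.2%. The HSP70 pair overlapped in part over cells. Of thinned Lyz2-icre cells with Hspa1b, 68.9% also had Hspa1a, against 6.41% of those without, and in control cells the shares were 59.9% and 8.45%. Of thinned cells with Hspa1a, 37.2% in Lyz2-icre and 22.2% in control also had Hspa1b, against 1.80% in Lyz2-icre and 1.74% in control of those without. Hsph1 was seen in 34.8% of Lyz2-icre cells with Hspa1b against 7.98% of those without, and in 28.4% against 6.61% of control cells.

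The cells with 5 or more inducible UMIs also held more of every constitutive member, which the choice of cells did not use. Hsp90aa1 was at 2116 CPM in these cells against 426 CPM in the others in Lyz2-icre, a ratio of 4.96, and at 2142 CPM against 416 CPM in control, a ratio of 5.15. The mitochondrial Hspd1 had ratios of 2.77 in Lyz2-icre and 2.55 in control and Hspe1 of 2.59 and 2.55. Hsp90ab1, at 1.82 and 2.18, and Hspa8, at 1.81 and 1.67, differed least. All 5 were thus past 1.5-fold higher in both libraries, where 2.73% of 2969 genes in Lyz2-icre and 3.4% of 3025 genes in control were higher and 17.9% and 19% were lower past that size. The median log2 ratio of the 5 was 1.36 in Lyz2-icre and 1.32 in control, against -0.23 and -0.18 over all genes.

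Only some of the wider stress response went along. Hspb1 was at 562.5 CPM in the high cells against 7.68 CPM in the others in Lyz2-icre and at 417 CPM against 4.82 CPM in control, ratios of 73.2 and 86.5. Bag3, an HSP70 co-chaperone that routes clients to autophagy, had ratios of 6.63 in Lyz2-icre and 4.84 in control, and Dnaja1, another J-domain protein, of 6.18 and 4.54. By contrast Stip1, which joins HSP70 to HSP90, had 0.841 and 1.14, the ER chaperone Hsp90b1 had 0.917 and 0.963, the chaperonin subunit Cct2 had 1.06 and 0.939, and the mitochondrial HSP70 Hspa9 had 0.763 and 0.883. Hspa5 stood at 1.68 in both libraries. Of the 16 genes of the stress-response list at 50 CPM or more over all thinned cells, which leaves out Hspb1 and Bag3, 1 was higher past 1.5-fold in Lyz2-icre and 2 were in control. Of 20 immediate early genes 3 were higher and 3 lower in Lyz2-icre, and 4 were higher and 3 lower in control. Jun was at 2.61 and 2.72 and Fos at 0.759 and 0.869.

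**Figure D4:**
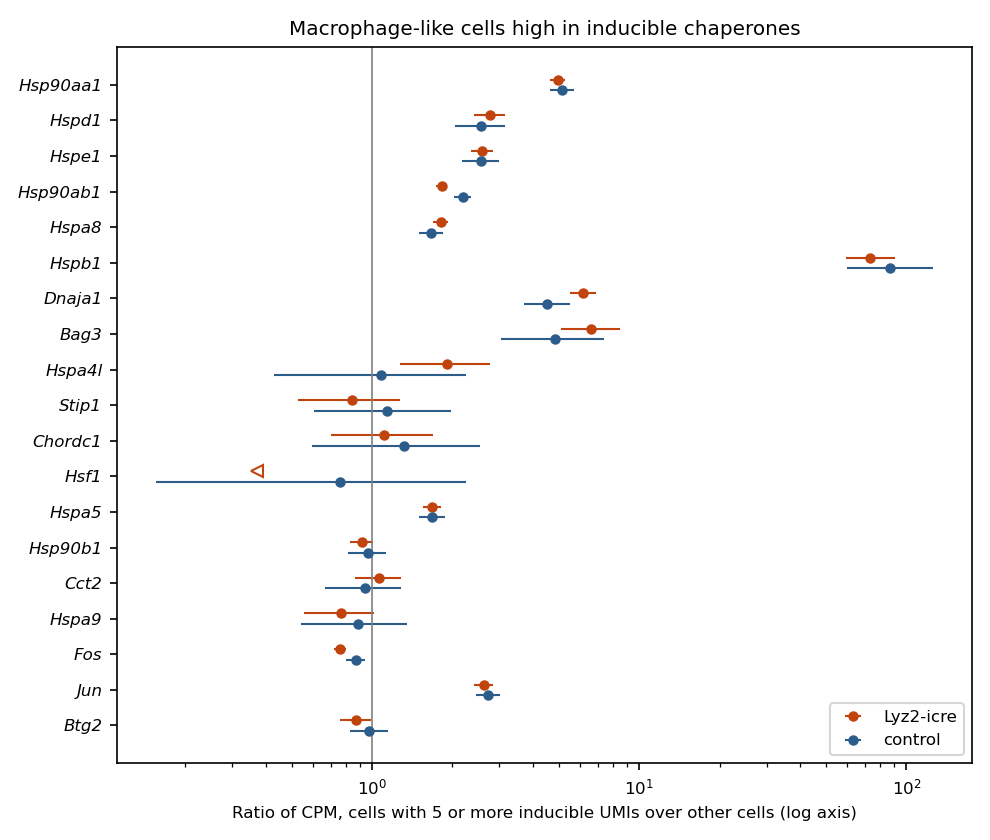
Ratio (log axis) of the level in thinned macrophage-like cells with 5 or more inducible UMIs over that in the other thinned cells, for the constitutive members and other genes, Lyz2-icre in orange and control in blue with 95% intervals for counting error. The open triangle marks the upper limit for Hsf1 in Lyz2-icre, with 0 UMIs in the high cells. Hspb1 lies at 73.2 and 86.5, Hsp90aa1 at 4.96 and 5.15, and Hspa9, Hsp90b1 and Cct2 lie near 1.

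Depth, RNA quality and marker levels of these cells were as follows. Before thinning they had a median of 5521 UMIs against 7371 for the others in Lyz2-icre, and of 8677.5 against 10470 in control. Their median mitochondrial share was 0.731% against 0.754% in Lyz2-icre and 1.67% against 1.59% in control. Immediate early genes summed to 14761 CPM against 16352 CPM in Lyz2-icre and to 17799 CPM against 18357 CPM in control. The C1q genes were at 11144 CPM against 13350 CPM in Lyz2-icre and 11314 CPM against 13454 CPM in control. The part of these measures in the chaperone values was not tested.

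Depth moved with the comparison of the libraries as well. Macrophage-like cells had a median of 6875 UMIs in Lyz2-icre and 10129 in control, and a median mitochondrial share of 0.785% and 1.62%. Among cells of 2000 to under 5000 UMIs, which were 20.4% of Lyz2-icre and 6.65% of control cells, the inducible sum was 549.5 CPM in Lyz2-icre and 315 CPM in control. Among cells of 5000 to under 10000 UMIs it was 291 CPM in Lyz2-icre and 329 CPM in control, and at 20000 UMIs or more 150.1 CPM in Lyz2-icre and 219 CPM in control. The direction of the pooled difference therefore held in 3 of 5 depth strata. In thinned cells grouped by mitochondrial share the ratio was 1.16 to 1.66 in 5 of 6 strata and 0.469 at 3% to 15%, and grouped by immediate early UMIs it was 1.13 to 1.64 in 5 of 6 and 0.924 in cells with 60 or more per 2000.

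**Figure D5:**
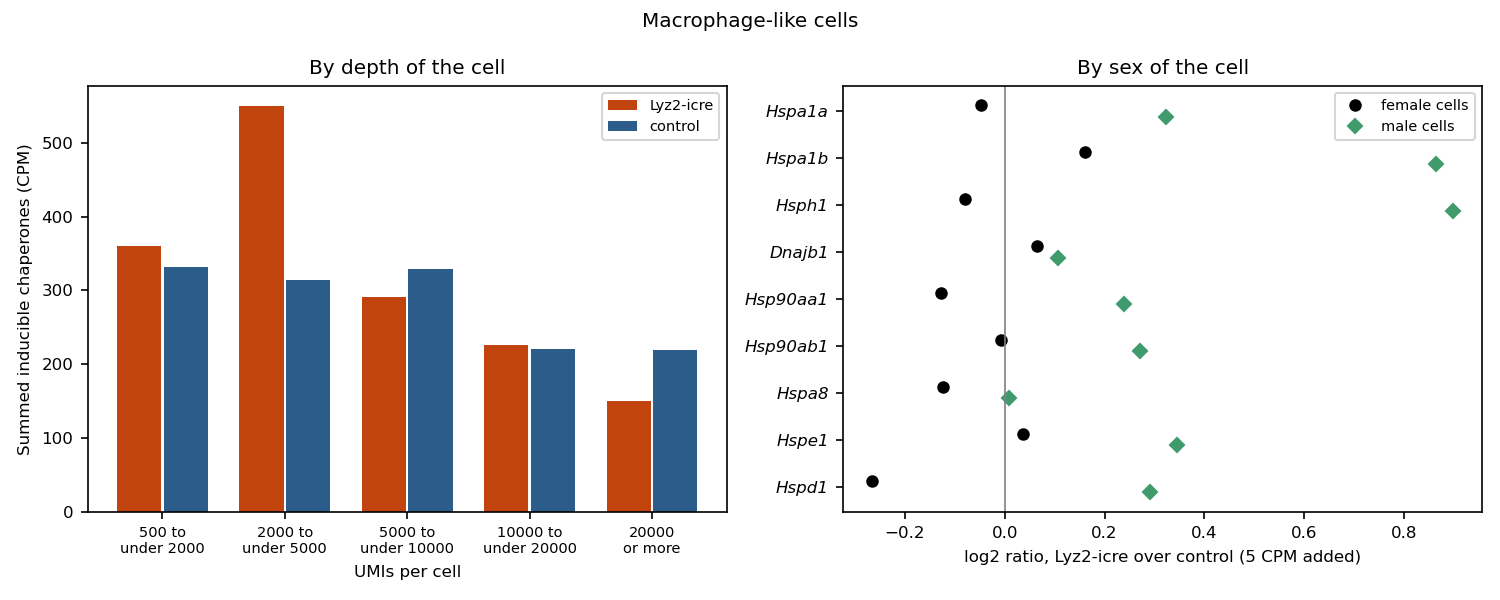
Left, summed inducible chaperone level (CPM) in macrophage-like cells by UMIs per cell, Lyz2-icre in orange and control in blue, without error bars. Right, log2 ratio of each member, Lyz2-icre over control, in female (black) and male (green) macrophage-like cells. Lyz2-icre exceeds control most at 2000 to under 5000 UMIs, and the male value exceeds the female value for each member.

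Likeness between members across classes varied. Over 20 points (10 classes in 2 libraries, which share a library and depth within each set of 10) log2 levels of Hspa1a and Hspa1b had a Pearson r of 0.773, Dnajb1 and Hsp90ab1 of 0.886, Hsp90ab1 and Hspd1 of 0.859, and Hspa1a and Hsp90ab1 of -0.585. The genes most like the inducible sum, of 9564 ranked, were Gtpbp8 (r 0.721), Pgf (0.678), Mfn1, Dap3, Gclm, Mmp9, Prkab2, Pofut1, Wasf2 and Mapk9 (0.604). The highest point of this sum was control regulatory T-like cells, where most Hspa1a UMIs came from a single cell. Its own members had r of 0.821 (Hspa1b), 0.584 (Hspa1a), 0.557 (Dnajb1) and 0.450 (Hsph1). Gtpbp8 spanned only 5.40 to 27.9 CPM. The genes most like the constitutive sum were Praf2 (0.967), Ccdc85b (0.962), Nckap1, Pebp1, Cst6, Mtap, Clec3b, Ddb1, Kdelr3 and Ppic (0.941). The 2 collagen-high points were the highest of the 20 for each of these 10 genes and for the constitutive sum.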

How the data were processed

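The values were raw UMI counts per gene and cell barcode, deposited by the authors as 1 matrix per library, and whole numbers by the values. Cells came from collagenase IV and DNase I digests and were sorted as CD45+7-AAD-, and libraries were 10x 3-prime (V3), per the labels' protocols. Counting used Cell Ranger 8.0.1, per the file headers, with bcl2fastq 5.0.1 and mm10 per the submitters' processing notes. The annotation release, and whether counting used strand, are not given in the sources used here, which bears on Hspa1a (Gm20481 overlaps it on the opposite strand) and on Hspe1 and Hspd1.

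The cell filter required 300 genes and 500 UMIs or more and a mitochondrial share of 15% or less, which removed 22 Lyz2-icre and 429 control barcodes for mitochondrial share. Of 17 marker lists none holds a chaperone. Gate thresholds were set after looking at marker distributions and before chaperone values were compared between libraries. No doublet caller was run. Cells below 20 C1q UMIs per 10000 that met several lineage gates (T, NK, collagen, neutrophil, mast, dendritic or B) were set aside as mixed. So were cells at or above that level that met any lineage gate other than cDC2. Together these were 851 Lyz2-icre and 642 control cells. A further 1026 and 567 cells fitted no class and were also set aside. Macrophage-like cells had at least 40 and C1q-low phagocyte-like cells at most 20 C1q UMIs per 10000, and 653 and 415 cells lay between.

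UMIs were summed per class and library and divided by the class total (CPM). A UMI tags a transcript end, so levels were not divided by length. Log2 ratios are Lyz2-icre over control with 5 CPM added. Genes with at least 10 CPM and 30 UMIs in the higher library were counted as past or not past 1.5-fold. Levels have exact Poisson, ratios conditional binomial and shares Clopper-Pearson 95% intervals. Only the ratio intervals and the thinning were tested on simulated counts. Those counts had no spread between cells beyond counting error, unlike the inducible members here. In thinned macrophage-like cells the variance of the inducible count was 11.6 times its mean in Lyz2-icre and 7.83 times in control. The intervals take variance and mean as equal. For the inducible members they are therefore too narrow to cover spread between cells, and by how much was not tested. Cells of 5 or more inducible UMIs were compared with the others over genes of at least 50 CPM. The members, gene lists and comparisons were chosen with earlier results of these data known. Of each list the 2 highest and 2 lowest ratios at 20 CPM or more were named, and the 10 genes most like each sum. Of the genes so chosen, 1 is not reported here. Hspb1 and other genes of the high cells were named after their values were seen. Gene positions are from GENCODE vM21 on mm10. Python 3.11.15, numpy 2.4.6, scipy 1.17.1, pandas 2.3.3 and matplotlib 3.10.9 were used.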

Additional observations from a re-analysis of the deposited data

Results flagged for a closer look

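The values below point opposite ways in different classes or sexes under the same comparison, Lyz2-icre over control, and the differences between them were not tested. The log2 ratio of Hspa1a was lowest in regulatory T-like cells (-3.50) and highest in migratory dendritic-like cells (1.63). That of Hspa1b was lowest and highest in the same classes, at -5.12 and 1.43, the lower value resting on 0 UMIs in Lyz2-icre. The inducible sum had -2.05 in regulatory T-like and 1.06 in migratory dendritic-like cells. In both classes 1 cell held more than 50% of the Hspa1a UMIs of the higher library. In cells of 5000 to under 10000 UMIs Hspa1a had -0.26 in regulatory T-like and -0.83 in migratory dendritic-like cells. Hspa1b had -3.53 and -0.46 there, and the inducible sum -0.29 and -0.39. Dnajb1 had -0.90 in other T-like cells and 0.87 in NK-like cells.

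In macrophage-like cells the sexes gave opposite signs for 6 of 9 members and for the constitutive sum. For 2 of these members, Hsp90aa1 and Hspd1, and for that sum the counting intervals lay clear of a ratio of 1 in both sexes. Hsp90aa1 had log2 ratios of -0.13 in female and 0.24 in male cells. Hspd1 had -0.26 in female and 0.29 in male cells. The constitutive sum had -0.07 in female and 0.20 in male cells.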

How the results depend on the processing

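No paired analysis was possible because each genotype has 1 library, so no replicate could be left out either. The inducible log2 ratio in macrophage-like cells (0.19) became 0.12 with the C1q limits doubled, 0.33 as a mean of per-cell CPM, 0.28 in thinned cells, 0.00 in female and 0.50 in male cells, and -0.18 in cells of 5000 to under 10000 UMIs, an alternative chosen after seeing the data, as were those that leave out the highest cells. The constitutive ratio (0.04) became 0.07 under median-of-ratios scaling, 0.06 as a per-cell mean, 0.06 in thinned cells, -0.07 in female and 0.20 in male cells, and 0.11 in cells of 5000 to under 10000 UMIs. Members past 1.5-fold (0) numbered 1 with per-cell means (Hspa1b, 0.64) and 2 in male cells (Hspa1b and Hsph1). Classes with a lower inducible sum (4 of 10) were 2 of 7 in female and 1 of 3 in male cells, the classes with enough sexed cells. Sign changes were listed for members whose interval with all cells lay clear of a ratio of 1. For Hspa1a (0.08) they were -0.03 (C1q limits doubled), -0.05 (female), -0.01 (without the top 1% of cells) and -0.39 (5000 to under 10000 UMIs). Hspa1b (0.39) changed to -0.04 (5000 to under 10000 UMIs), Hsph1 (0.27) to -0.08 (female) and Hsp90ab1 (0.10) to -0.01 (female). Hspa8 (-0.07) changed to 0.01 (male), and Hspd1 (-0.05) to 0.29 (male) and 0.02 (5000 to under 10000 UMIs). Hsp90aa1, whose interval included a ratio of 1, is not in that list and had -0.13 in female cells. The cause of these sign changes was not tested. Without the filter on low genes, 76 genes of macrophage-like cells were lower and 32 higher past 1.5-fold, against 70 and 28 with it. In the 7 classes from monocyte-like to NK-like the counts were 626 to 2474 lower and 452 to 2240 higher without it, against 206 to 393 and 74 to 265 with it, and in collagen-high cells 294 against 193 were higher. Depth limits the smaller classes, where Hspa1a and Hspa1b rest on as few as 0 to 12 UMIs.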

Other observations

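The smaller classes, below 50 cells in at least 1 library, gave the following values. Mast or basophil-like cells had the highest Dnajb1 level of any gated class, with 1407 CPM (59 UMIs, in 14 of 17 cells) in Lyz2-icre and 594 CPM (87 UMIs, in 11 of 40 cells) in control, and inducible sums of 1526 and 621 CPM. Neutrophil-like cells had inducible sums of 507 CPM in Lyz2-icre and 189 CPM in control (48 and 147 cells), with constitutive sums of 1577 and 1066 CPM. Their Hsp90ab1 level was 344 CPM in Lyz2-icre and 361 CPM in control.

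Among genes that are no members, those with the largest ratio between macrophage-like cells of 5 or more inducible UMIs and the others, chosen after their values were seen and ranked by the lower of the libraries' ratios over 2860 genes, included several outside protein folding. Hmox1, which encodes the haem oxygenase that oxidants induce, was at 807 CPM in the high cells against 133 CPM in the others in Lyz2-icre and at 461 CPM against 94.5 CPM in control. Log2 ratios were 1.83 in Lyz2-icre and 1.36 in control for Sap30, 1.48 and 1.11 for the glucose transporter Slc2a1, 1.02 and 1.15 for the mitophagy receptor Bnip3, 0.96 and 1.20 for the ER oxidase Ero1a, and 1.25 and 0.90 for Ndrg1. Slc2a1, Bnip3, Ero1a and Ndrg1 are known targets of hypoxia signalling, and Sat1, the polyamine acetyltransferase, had 1.06 and 1.13.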
